A study of Mus musculus with 22 samples.

Results

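The Hox gene clusters were examined as the protein-coding genes of the GENCODE M21 annotation (build GRCm38, also called mm10) whose symbol is Hox followed by a, b, c or d and a number. These were 39 of 21951 protein-coding genes, and they overlapped 9 of the 26327 bins of 100 kb in which the 5mC level was given and 5 of the 2641 bins of 1 Mb in which the 5hmC level was given. All 9 and all 5 had a value above 0 in every library and were kept. As neighbours, 40 bins of 100 kb within 500 kb of a cluster were taken as its flanks. The DNA came from cortex, olfactory bulb and cerebellum of C57BL/6 female mice at 8 weeks of age. For 5mC, oxBS-seq (where a chemical oxidation of 5hmC ahead of the bisulfite step leaves 5mC as the base that still reads as C) was applied to 3 cortex, 2 olfactory bulb and 2 cerebellum libraries. For 5hmC, TAB-seq (where glucose shields 5hmC and a TET enzyme then converts 5mC, leaving 5hmC to read as C) was applied to 3 libraries of each tissue. The methods describe cortex as the whole cerebral cortex without hippocampus, and replicates as independent mice. The labels name no treatment and no transgene, and all groups share the sex, the strain and the age. A tissue is a mixture of cell types, so a different share of cells and a different level within the cells cannot be told apart in these libraries.

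Hox genes encode homeodomain transcription factors that give each level of the body axis its identity in the embryo. In mammals they lie in the HoxA, HoxB, HoxC and HoxD clusters, and paralogue groups are numbered from the end whose genes are expressed earliest and farthest towards the head (group 1) to the end expressed latest and farthest towards the tail (group 13). Their expression in the nervous system begins at the hindbrain, behind the forebrain and midbrain, and Polycomb complexes are known to keep the clusters silent elsewhere. Hox clusters are also known for dense CpG islands and few transposable elements. The level of 5mC or 5hmC is given here as a fraction from 0 to 1.

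The HoxA cluster lay on chromosome 6 and held 11 genes, all on the minus strand. The HoxB cluster at chr11:96194316-96368256 held 10 genes, the HoxC cluster at chr15:102921103-103036852 held 9 genes and the HoxD cluster at chr2:74668310-74765142 held 9 genes, all on the plus strand. A 100 kb bin thus never measured a gene by itself. In the HoxA cluster, Hoxa3, Hoxa5, Hoxa6, Hoxa7, Hoxa9, Hoxa10, Hoxa11 and Hoxa13 shared a bin. The HoxB cluster took 3 bins, with Hoxb13 alone, with Hoxb6 to Hoxb9, and with Hoxb1 to Hoxb6. The HoxC cluster was divided between a bin with Hoxc5, Hoxc6 and Hoxc8 to Hoxc13 and a bin with Hoxc4, Hoxc5 and Hoxc6. The HoxD cluster was divided between a bin with Hoxd9 to Hoxd13, which also held the neighbouring homeobox gene Evx2, and a bin with Hoxd1, Hoxd3, Hoxd4, Hoxd8 and Hoxd9. Hoxb13 stood apart, since the cluster covered 5.69% of its bin and the rest held Calcoco2 and Ttll6.

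The sequence at the starts of these genes shows what oxBS-seq measured there, since methylation in the tables was read at CpG sites. RefSeq promoter windows of 300 bases (250 before and 50 after the start, build GRCm38.p6) were on hand for 22 of the 39 genes, in 24 windows. They held a median of 14.5 CpG sites (4 to 45), and 17 of the 24 windows (70.8%) held at least 10, against 43.5% of 32851 windows of all genes, whose median was 7. The 4 windows below are shown because they lie at the group 13 end of HoxA, at opposite ends of HoxD and in the HoxC cluster, and each CpG site is in capitals. The windows are Hoxa13 at chr6:52260831-52261130 (minus strand, 45 CpG sites), Hoxd13 at chr2:74667975-74668274 (plus strand, 37), Hoxd1 at chr2:74762730-74763029 (plus strand, 29) and Hoxc4 at chr15:103034145-103034444 (plus strand, 9).
Hoxa13: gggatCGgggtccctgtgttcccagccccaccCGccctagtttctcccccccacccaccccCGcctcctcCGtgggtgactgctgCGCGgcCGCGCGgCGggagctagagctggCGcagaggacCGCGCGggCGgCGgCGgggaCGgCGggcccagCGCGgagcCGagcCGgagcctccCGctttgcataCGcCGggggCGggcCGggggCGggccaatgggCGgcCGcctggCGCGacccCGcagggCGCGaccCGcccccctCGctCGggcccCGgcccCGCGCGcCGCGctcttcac
Hoxd13: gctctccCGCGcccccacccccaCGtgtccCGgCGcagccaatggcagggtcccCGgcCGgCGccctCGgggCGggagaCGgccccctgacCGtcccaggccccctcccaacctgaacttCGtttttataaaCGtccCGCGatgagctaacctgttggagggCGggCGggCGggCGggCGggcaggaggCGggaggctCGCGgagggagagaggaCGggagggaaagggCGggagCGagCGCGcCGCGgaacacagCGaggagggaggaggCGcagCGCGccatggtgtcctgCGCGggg
Hoxd1: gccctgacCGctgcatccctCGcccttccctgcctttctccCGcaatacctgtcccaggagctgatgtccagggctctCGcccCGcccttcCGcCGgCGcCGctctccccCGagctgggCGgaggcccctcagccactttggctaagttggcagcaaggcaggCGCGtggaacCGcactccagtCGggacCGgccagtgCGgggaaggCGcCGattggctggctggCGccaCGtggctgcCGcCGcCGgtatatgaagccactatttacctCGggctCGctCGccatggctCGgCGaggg
Hoxc4: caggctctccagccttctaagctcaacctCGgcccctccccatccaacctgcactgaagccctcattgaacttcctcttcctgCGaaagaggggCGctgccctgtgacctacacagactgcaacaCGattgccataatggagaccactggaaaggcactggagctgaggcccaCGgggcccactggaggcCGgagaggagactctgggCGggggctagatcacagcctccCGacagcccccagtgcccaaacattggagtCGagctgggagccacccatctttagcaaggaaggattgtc

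Hoxa13 held 45 sites, and its bin had the third lowest level of the genome. In the HoxD cluster, the counts of Hoxd13 and Hoxd1 lay closer together, as did the levels of their bins. The windows of Hoxb1 (10 sites) and Hoxb8 (13), not printed here, lay in bins at 0.209 and 0.237. Both levels are below the 0.255 of the bin of Hoxd1 with its 29 sites, while Hoxc4 with 9 lay in a bin at 0.272. The counts of the windows thus did not order the levels of the bins. The levels themselves are bin means and do not resolve these windows.

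Over all 25664 bins of 100 kb that had a level between 0 and 1 in every library, cortex had a median 5mC level of 0.697, olfactory bulb one of 0.729 and cerebellum one of 0.753. Pearson's r across bins between replicates of a tissue was 0.947 to 0.982 for 5mC and 0.994 to 0.998 for 5hmC, and no pair of libraries was identical. The third cortex library of oxBS-seq had the lowest mean level, 0.660 against up to 0.687 in the other cortex libraries. No read counts or coverage came with the levels, so the depth behind a bin is unknown, and the SD between libraries is the error given. As a check of the tissue labels, the bin of 6 of 7 marker genes of cortical excitatory neurons had its lowest 5mC level in cortex, that of 4 of 7 olfactory bulb markers in olfactory bulb and that of 4 of 8 cerebellar markers in cerebellum. The bins of 4 of 5 oligodendrocyte, 3 of 4 astrocyte and 3 of 3 microglia markers were lowest in cortex, the tissue with the lowest genome-wide level.

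The Hox bins were among the lowest in 5mC of the mouse genome in these brain tissues. By the mean over the tissues, 3 of the lowest 5 bins, 6 of the lowest 10 and 8 of the lowest 20 were Hox bins, and the eighth of them ranked 12. No further Hox bin was among the lowest 100. The bin with Hoxc5, Hoxc6 and Hoxc8 to Hoxc13 ranked lowest of the 25664 bins in each of the 3 tissues. The remaining Hox bin, that of Hoxb13, ranked 159, and all 9 lay below the 1st percentile of all bins in each tissue, which was 0.438 to 0.446.

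In the HoxC cluster, whose genes pattern the trunk and tail end of the embryo, the Hoxc5 to Hoxc13 bin (chr15:102900001-103000000) read 0.0719, 0.0826 and 0.0600 in the 3 cortex libraries, 0.0890 and 0.0699 in olfactory bulb, and 0.0679 and 0.0713 in cerebellum. Its mean was 0.0715 ± 0.0113 (SD, n = 3) in cortex, 0.0794 ± 0.0135 (n = 2) in olfactory bulb and 0.0696 ± 0.00243 (n = 2) in cerebellum. The libraries of the 3 tissues overlapped, and every library lay below the next lowest bin of the genome, whose lowest library read 0.0921. The Hoxc4 to Hoxc6 bin (chr15:103000001-103100000) read 0.276, 0.265 and 0.252 in cortex, 0.286 and 0.271 in olfactory bulb, and 0.276 and 0.269 in cerebellum. This bin held the group 4 end of the cluster and was at over 3 times the level of its neighbour in every library, with the tissues again overlapping.

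In the HoxA cluster, which includes Hoxa2, needed for the hindbrain and the second pharyngeal arch, and Hoxa13, needed for the digits and the genital tract, the Hoxa5 to Hoxa13 bin (chr6:52200001-52300000) ranked 3 from the lowest. It read 0.138, 0.142 and 0.120 in cortex, 0.139 and 0.124 in olfactory bulb, and 0.146 and 0.139 in cerebellum. The libraries of the 3 tissues overlapped.

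In the HoxB cluster, whose Hoxb1 marks a segment of the hindbrain and whose Hoxb13 acts in the prostate and the tail end of the body, the Hoxb1 to Hoxb6 bin (chr11:96300001-96400000) read 0.213, 0.207 and 0.188 in cortex, 0.243 and 0.189 in olfactory bulb, and 0.205 and 0.214 in cerebellum. The Hoxb6 to Hoxb9 bin (chr11:96200001-96300000), which lay wholly within the cluster, read 0.228, 0.247 and 0.254 in cortex, 0.248 and 0.228 in olfactory bulb, and 0.219 and 0.243 in cerebellum. Full cover by the cluster did not go with the lowest level, since the Hoxc5 to Hoxc13 bin was covered to 78.9%. The Hoxb13 bin (chr11:96100001-96200000) read 0.422, 0.429 and 0.439 in cortex, 0.443 and 0.434 in olfactory bulb, and 0.429 in both cerebellum libraries. It was the highest of the 9, and the libraries of cortex overlapped those of each other tissue.

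In the HoxD cluster, whose Hoxd9 to Hoxd13 shape the limbs, the Hoxd9 to Hoxd13 bin with Evx2 (chr2:74600001-74700000) read 0.232, 0.240 and 0.217 in cortex, 0.228 and 0.219 in olfactory bulb, and 0.237 and 0.225 in cerebellum. The Hoxd1 to Hoxd9 bin (chr2:74700001-74800000) read 0.249, 0.252 and 0.214 in cortex, 0.264 and 0.243 in olfactory bulb, and 0.271 and 0.275 in cerebellum. In the former all 3 tissues overlapped, and in the latter both cerebellum libraries lay above every other library. These 8 bins are drawn by library in the plot of 5mC levels of the Hox bins.

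**Figure D1:**
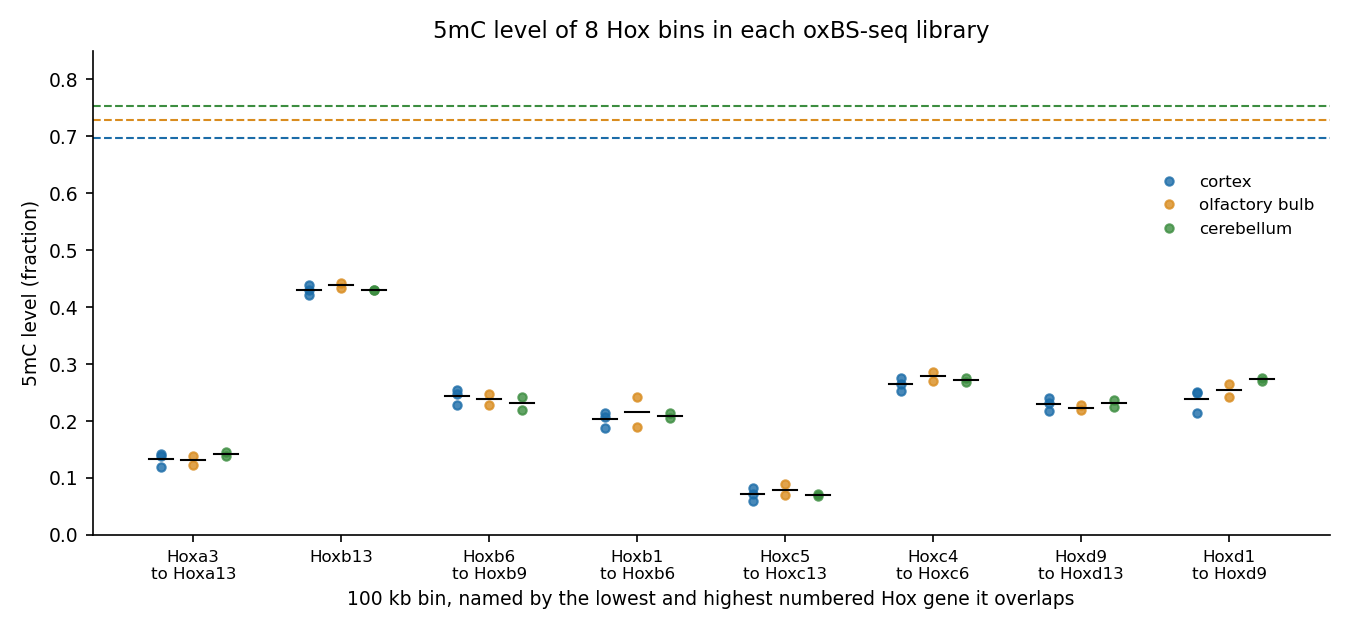
The y axis gives the 5mC level (fraction) of each of the 8 Hox bins described above on the x axis, with 1 point for each oxBS-seq library (3 cortex, 2 olfactory bulb, 2 cerebellum), a black bar for the tissue mean, and dashed lines for the median of all 25664 bins in each tissue (0.697, 0.729 and 0.753). The points lie between 0.0600 and 0.443, below the dashed lines, and the colours mix within most bins.

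The fall in 5mC was sharp at the edges of the clusters. On the group 13 side of HoxC the bin next to the cluster, whose near edge lies 21103 bp away and which holds no protein-coding gene, had a mean of 0.741, and the Hoxc5 to Hoxc13 bin beside it had 0.0735. On the other side the level went from 0.272 in the Hoxc4 bin to 0.469 in the bin of Smug1 and Cbx5. At HoxD it went from 0.692 in the bin of Lnpk to 0.228 and from 0.255 to 0.698 in the bin of Mtx2. The borders of HoxD and the group 13 border of HoxC were thus crossed within a bin. On the group 13 side of HoxA the level went from 0.136 to 0.540 in the bin of Evx1, a homeobox gene related to the Hox genes, which was the lowest flank bin there. At HoxB it went from 0.209 beside Hoxb1 to 0.664 in the bin of Skap1, but from 0.521 through the 0.433 of the Hoxb13 bin to 0.237 on the other side. The step beyond Hoxb13 was therefore the most gradual of the 8 borders.

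The mean of the Hox bins of a cluster minus the mean of its flank bins, averaged over the 4 clusters with equal weight, was -0.418 ± 0.0218 (SD, n = 7 libraries), from -0.453 to -0.395, with the Hox bins lower. The difference was below 0 in 7 of 7 libraries (two-sided exact sign-flip permutation test, p = 0.0156, the smallest that 7 libraries can give). By cluster the mean difference was -0.482 ± 0.0195 for HoxA, -0.335 ± 0.0224 for HoxB, -0.383 ± 0.0284 for HoxC and -0.472 ± 0.0228 for HoxD, each below 0 in 7 of 7 libraries (exact sign-flip permutation p = 0.0156 and 0.0156 after adjustment over the 4 clusters). HoxC had the lowest Hox level but not the widest gap, because its flanks were the lowest, with a mean of 0.529 in cortex against 0.689 at HoxD. The flank bins at HoxC ranged from 0.466 (Cbx5, Hnrnpa1, Nfe2 and Copz1) to 0.743 (Gtsf1, Gtsf2 and Nckap1l), and those at HoxD, of which several lie in a gene desert, from 0.692 (Lnpk) to 0.751 (no protein-coding gene). Those at HoxA ranged from 0.540 (Evx1) to 0.771 (Skap2) and those at HoxB from 0.521 (Igf2bp1, Gip, Snf8, Ube2z, Atp5g1 and Calcoco2) to 0.726 (Skap1). The lowest of the 40 flank bins was thus above the highest Hox bin.

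**Figure D2:**
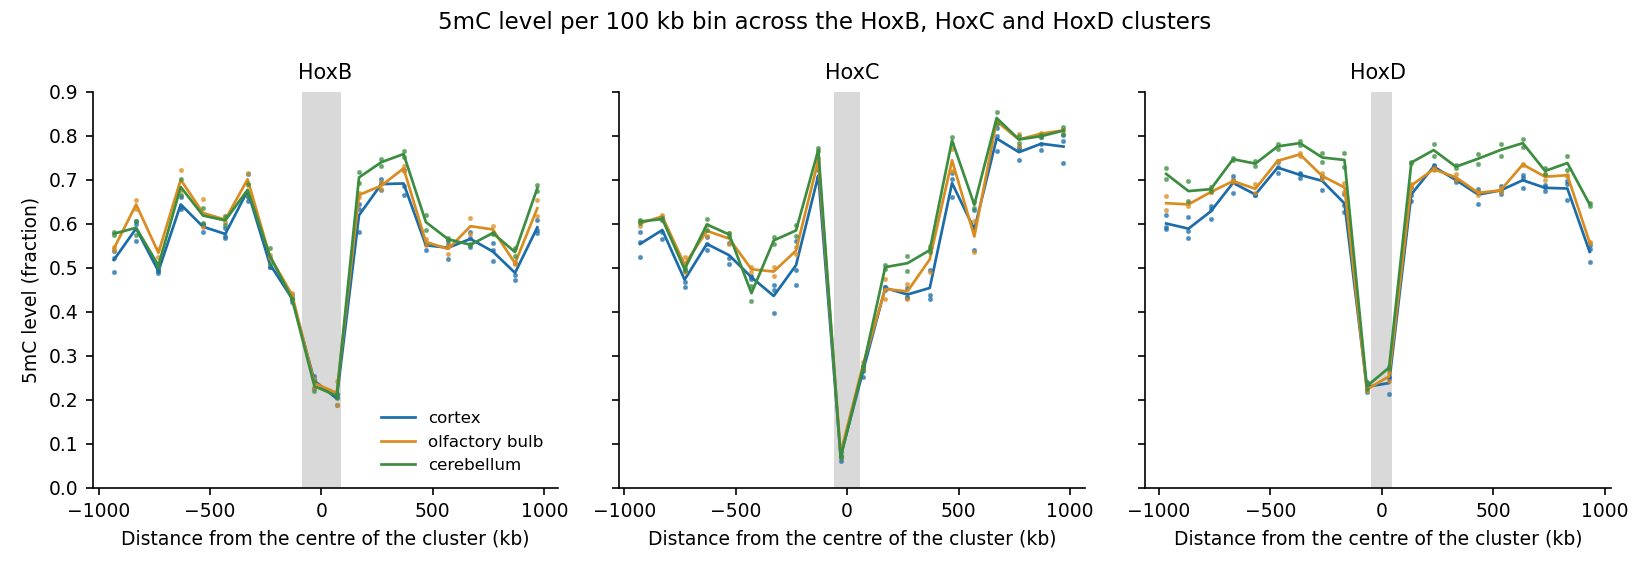
The x axis of each panel gives the distance of a 100 kb bin from the centre of the cluster (kb), the y axis the 5mC level (fraction), lines the mean of each tissue, points the libraries, and the grey band the cluster. In the panels of HoxB, HoxC and HoxD the 3 lines fall together from about their flank levels (means of 0.529 to 0.755 by cluster and tissue) to between 0.0696 and 0.279 in the Hox bins other than that of Hoxb13, and the lines lie closer together inside the band than beside it.

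Levels also differed along a cluster. In HoxC the bin at the Hoxc13 end was lower than the bin at the Hoxc4 end, 0.0732 against 0.271 over the 7 libraries (difference -0.197 ± 0.00843). The difference was below 0 in 7 of 7 libraries (exact sign-flip permutation p = 0.0156, the smallest possible; 0.0208 adjusted over the 4 clusters). HoxB ran the other way, with 0.432 at the Hoxb13 end and 0.208 at the Hoxb1 end (difference 0.224 ± 0.0186, above 0 in 7 of 7 libraries, the same p). With the Hoxb6 to Hoxb9 bin in place of the Hoxb13 bin, an alternative chosen after seeing the data, the difference was 0.0297 ± 0.0206 and still above 0 in 7 of 7 libraries (exact sign-flip permutation p = 0.0156). In HoxD the bin at the Hoxd13 end was slightly lower, 0.228 against 0.253 (difference -0.0242 ± 0.0178), in 6 of 7 libraries (exact sign-flip permutation p = 0.0313, also after adjustment). This p rose to 0.0625 when any library other than the third cortex library was left out. So the bin at the Hoxc13 end, which also held Hoxc5, Hoxc6 and Hoxc8, was the lower in HoxC, and the direction was not shared by HoxB. The compared bins also differed in their cover by the cluster. It was 78.9% at the Hoxc13 end (2050 CpG sites) and 36.9% at the Hoxc4 end (1281 sites). At HoxB it was 5.69% against 68.3%, and at HoxD 31.7% against 65.1%. Position along the cluster was not tested apart from these.

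Between tissues, the Hox bins differed little, while most of the genome was more methylated in cerebellum than in cortex. The mean over the 9 bins was 0.232 ± 0.00723 in cortex (n = 3), 0.235 ± 0.0156 in olfactory bulb (n = 2) and 0.240 ± 0.000473 in cerebellum (n = 2). Cerebellum exceeded cortex by 0.00779, with no overlap between libraries (exact permutation test, two-sided, p = 0.2, where 0.1 is the smallest possible). Olfactory bulb exceeded cortex by 0.00313 (exact permutation p = 1), and cerebellum exceeded olfactory bulb by 0.00466 (exact permutation p = 1), with overlap in both.

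Bin by bin, limma on log2(level/(1 - level)) with Benjamini-Hochberg adjustment over all 25664 bins called 0 of the 9 Hox bins between olfactory bulb and cortex (0 also at an unadjusted p under 0.05), where 39.7% of all bins were called. Between cerebellum and cortex it called 1 of 9, higher in cerebellum, where 76.4% of all bins were called, 71.9% as higher. Between cerebellum and olfactory bulb it called 1 of 9, also higher in cerebellum, where 43.0% were called, 35.3% as higher. The libraries of the tissues did not overlap in 0, 2 and 3 of the 9 bins in the same order of comparisons, against 65.1%, 81.9% and 74.8% of all bins. The share of Hox bins called was therefore below the background in all 3 comparisons.

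The bin called between cerebellum and cortex was that of Hoxd1, Hoxd3, Hoxd4, Hoxd8 and Hoxd9, which rose from 0.238 ± 0.0212 to 0.273 ± 0.00328 (log2 change 0.27 ± 0.12, SE; adjusted p = 0.0304). This call was not firm, since it was lost when the third cortex library or either cerebellum library was left out. The lowest change between these tissues on the log2 scale was -0.10, in the Hoxb6 to Hoxb9 bin, and that of the Hoxa5 to Hoxa13 bin was 0.11. The 95% interval of the bin with the lowest level, Hoxc5 to Hoxc13, was -0.26 to 0.20.

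The median change over the Hox bins was 0.05, 0.06 and -0.04 on the log2 scale for olfactory bulb against cortex, cerebellum against cortex and cerebellum against olfactory bulb, beside 0.22, 0.43 and 0.19 for all bins. Because the whole genome shifted by these medians, the calls were also made after each library was centred on its median. Then 0 Hox bins were called higher and 3 lower between olfactory bulb and cortex (18.7% of all bins called, 9.90% as lower). For cerebellum against cortex it was 0 higher and 8 lower (50.04% called, 24.3% as lower). For cerebellum against olfactory bulb it was 0 higher and 2 lower (43.4% called, 21.3% as lower). Relative to the median of all bins, the Hox bins were thus lower in cerebellum than in cortex, though their own level was not. This was not shown to be particular to the Hox bins. The 1st percentile of all bins did not rise with the median either, at 0.439 in cortex and 0.438 in cerebellum. The bin of Hoxd1 to Hoxd9, called higher without centring, was the exception with no call after it (log2 change -0.14, adjusted p = 0.167).

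Of the 40 flank bins, 8 were called between olfactory bulb and cortex, all higher (37.6% of all bins), 32 between cerebellum and cortex, all higher (71.9% of all bins), and 16 between cerebellum and olfactory bulb, 15 higher (35.3% of all bins) and 1 lower (7.69%). In the comparisons with cerebellum these counts were near the background, and between olfactory bulb and cortex the count was below it. By cluster, the calls between cerebellum and cortex were 9 of 10 flank bins at HoxA, HoxC and HoxD and 5 of 10 at HoxB. At HoxA the bin of Tax1bp1 and Jazf1 changed most between these tissues, from 0.594 to 0.719 (log2 change 0.81, adjusted p = 1.16e-10), and at HoxB the bin of Skap1 next to Hoxb1, from 0.620 to 0.706 (log2 change 0.56, adjusted p = 7.90e-06). At HoxC the bin of Atf7 and Atp5g2 rose from 0.436 to 0.563 (log2 change 0.73, adjusted p = 4.86e-09), and at HoxD the bin of Lnpk, beside the Hoxd13 end, rose from 0.647 to 0.745 (log2 change 0.68, adjusted p = 5.43e-08). Lnpk and Skap1 are direct neighbours of the HoxD and HoxB clusters. The lower call, named after its values were seen, was the bin of Pcbp2 and Atf7 at HoxC, with 0.497 in olfactory bulb and 0.443 in cerebellum.

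The gap between the clusters and their flanks, again averaged over the 4 clusters with equal weight, was accordingly wider in cerebellum. It was -0.399 ± 0.00410 in cortex (n = 3), -0.417 ± 0.00896 in olfactory bulb (n = 2) and -0.446 ± 0.0103 in cerebellum (n = 2), and the libraries of the 3 tissues did not overlap. The difference between cerebellum and cortex was -0.0467 (exact permutation p = 0.1, the smallest that 2 libraries against 3 can give). On the log2 scale the gap was -2.68, -2.78 and -2.99, so the order was the same. In each of the 4 clusters the gap was wider in both cerebellum libraries than in all 3 cortex libraries, by -0.0380 for HoxA, -0.0414 for HoxB, -0.0600 for HoxC and -0.0475 for HoxD (exact permutation p = 0.1 each).

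**Figure D3:**
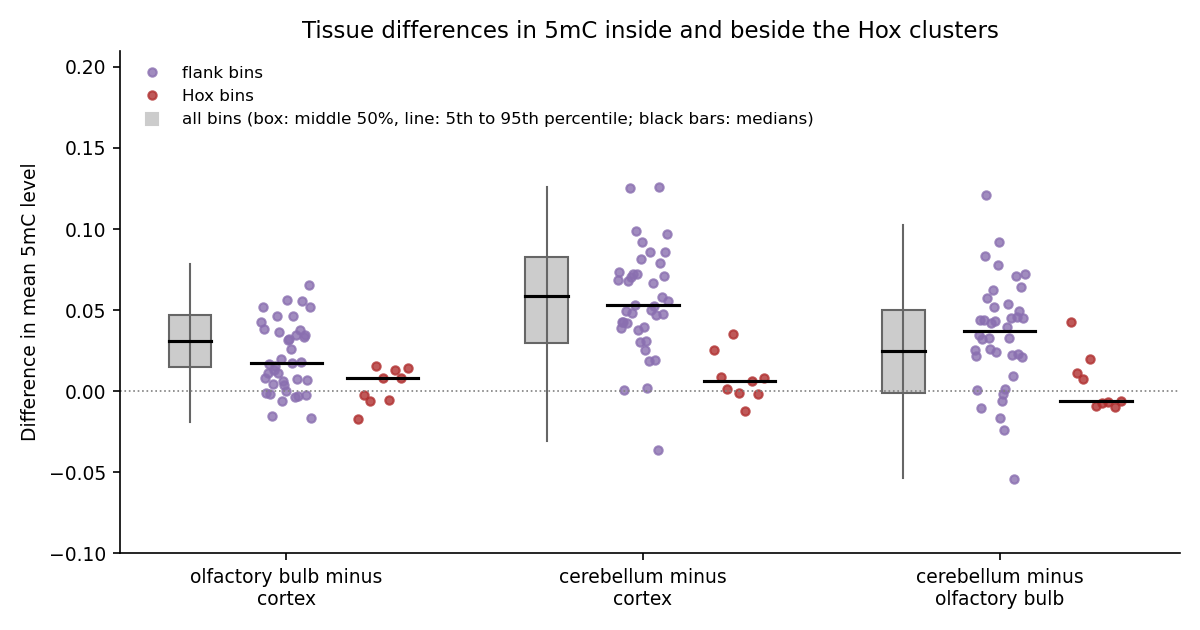
For each pair of tissues on the x axis, the y axis gives the difference in mean 5mC level (fraction) of the 40 flank bins (purple) and the 9 Hox bins (red), with the distribution of all 25664 bins as a grey box (middle 50%), a line (5th to 95th percentile) and black bars at medians. For cerebellum minus cortex the Hox bins lie between -0.0124 and 0.0350 and the median flank bin at 0.0530.

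The 5hmC level was given in bins of 1 Mb only, of which a Hox cluster filled between 3.69% and 17.4%, so these values describe the clusters together with their neighbours. The HoxC cluster fell across 2 such bins, and because none lay within 500 kb of it as a flank, the next bin was used there. In the HoxA bin (chr6:52000001-53000000) the level was 0.162, 0.177 and 0.159 in cortex, 0.152, 0.156 and 0.152 in olfactory bulb, and 0.103, 0.103 and 0.104 in cerebellum. In the HoxB bin (chr11:96000001-97000000) it was 0.130, 0.139 and 0.121 in cortex, 0.107, 0.114 and 0.110 in olfactory bulb, and 0.0665, 0.0691 and 0.0719 in cerebellum. Both bins were ordered cortex, olfactory bulb, cerebellum, with no overlap between the libraries of any pair of tissues.

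In the HoxC bin with Hoxc5 to Hoxc13 (chr15:102000001-103000000) cortex had a mean of 0.153 ± 0.00741, olfactory bulb one of 0.135 ± 0.00383 and cerebellum one of 0.105 ± 0.00580 (n = 3 each), and in that with Hoxc4 (chr15:103000001-104000000) it was 0.125 ± 0.00469, 0.107 ± 0.00263 and 0.0738 ± 0.00186. In the HoxD bin (chr2:74000001-75000000) the libraries read 0.144, 0.158 and 0.141 in cortex, 0.136, 0.146 and 0.142 in olfactory bulb, and 0.0666, 0.0716 and 0.0729 in cerebellum. Here cortex and olfactory bulb overlapped, and the mean in cerebellum differed from that in cortex by -0.0774 and from that in olfactory bulb by -0.0708.

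By limma with Benjamini-Hochberg adjustment over 2581 bins, 5 of 5 Hox bins were called lower in cerebellum than in cortex (98.1% of all bins were called, 97.6% as lower) and 5 of 5 lower than in olfactory bulb (93.0% called, 91.8% as lower). Between olfactory bulb and cortex, 3 of 5 were called, all lower in olfactory bulb (70.9% called, 67.7% as lower). The libraries did not overlap in 5, 5 and 4 of the 5 bins in the same order, against 97.9%, 94.0% and 71.5% of all bins. The 3 bins called by limma between olfactory bulb and cortex were the HoxB bin (log2 change -0.27, adjusted p = 0.000536) and both HoxC bins (-0.21, adjusted p = 0.00679, and -0.26, adjusted p = 0.000953). The HoxA bin had a change of -0.14 (adjusted p = 0.0860) and the HoxD bin one of -0.08 (adjusted p = 0.344, 95% interval -0.22 to 0.07). The counts were near those of the whole genome, and nothing separate was seen for the Hox bins in them.

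The size of the 5hmC change did vary between the clusters. Between cerebellum and cortex the log2 change was -1.20 in the HoxD bin, -1.01 in the HoxB bin, -0.78 in the HoxA bin and -0.62 and -0.84 in the HoxC bins with Hoxc5 to Hoxc13 and with Hoxc4 (SE 0.07 each), against a median of -0.97 over all bins. HoxD thus changed more than the median bin and HoxA and HoxC less. After each library was centred on its median, 3 of the 5 bins (HoxA and both HoxC bins) were called higher in cerebellum than in cortex and 1, HoxD, lower, with 90.4% of all bins called. Against olfactory bulb 4 were called higher and HoxD lower (90.0% called), and between olfactory bulb and cortex 2 were called higher in olfactory bulb, HoxA and HoxD, and 0 lower (69.3% called).

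The Hox bins also had lower 5hmC than their flank, which was 1 bin of 1 Mb on 1 side of each cluster. Averaged over the 4 clusters, the difference was -0.0313 ± 0.00392 (SD, n = 9 libraries). It was below 0 in 9 of 9 libraries (exact sign-flip permutation p = 0.00391, the smallest possible). By cluster the difference was -0.0182 ± 0.00891 for HoxA, -0.0460 ± 0.0105 for HoxB, -0.0299 ± 0.00971 for HoxC and -0.0309 ± 0.00526 for HoxD, each below 0 in 9 of 9 libraries (exact sign-flip permutation p = 0.00391, also when adjusted over the 4 clusters). The HoxC value is a mean of its 2 bins. Taken alone, the bin with Hoxc5 to Hoxc13 was close to the flank in cerebellum, with means of 0.105 and 0.107. In the second cerebellum library this bin was above the flank, at 0.108 against 0.105, and in every other library it was below. The 5hmC levels of these 1 Mb bins were not at the bottom of the genome. In the mean over tissues the 5 bins were at or above between 22.2% and 49.5% of all 2581 bins in 5hmC. This cannot be set directly against the 5mC ranks of the 100 kb bins, since the bin size differs. At 1 Mb the same bins ranked from 5 to 222 from the lowest in 5mC.

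**Figure D4:**
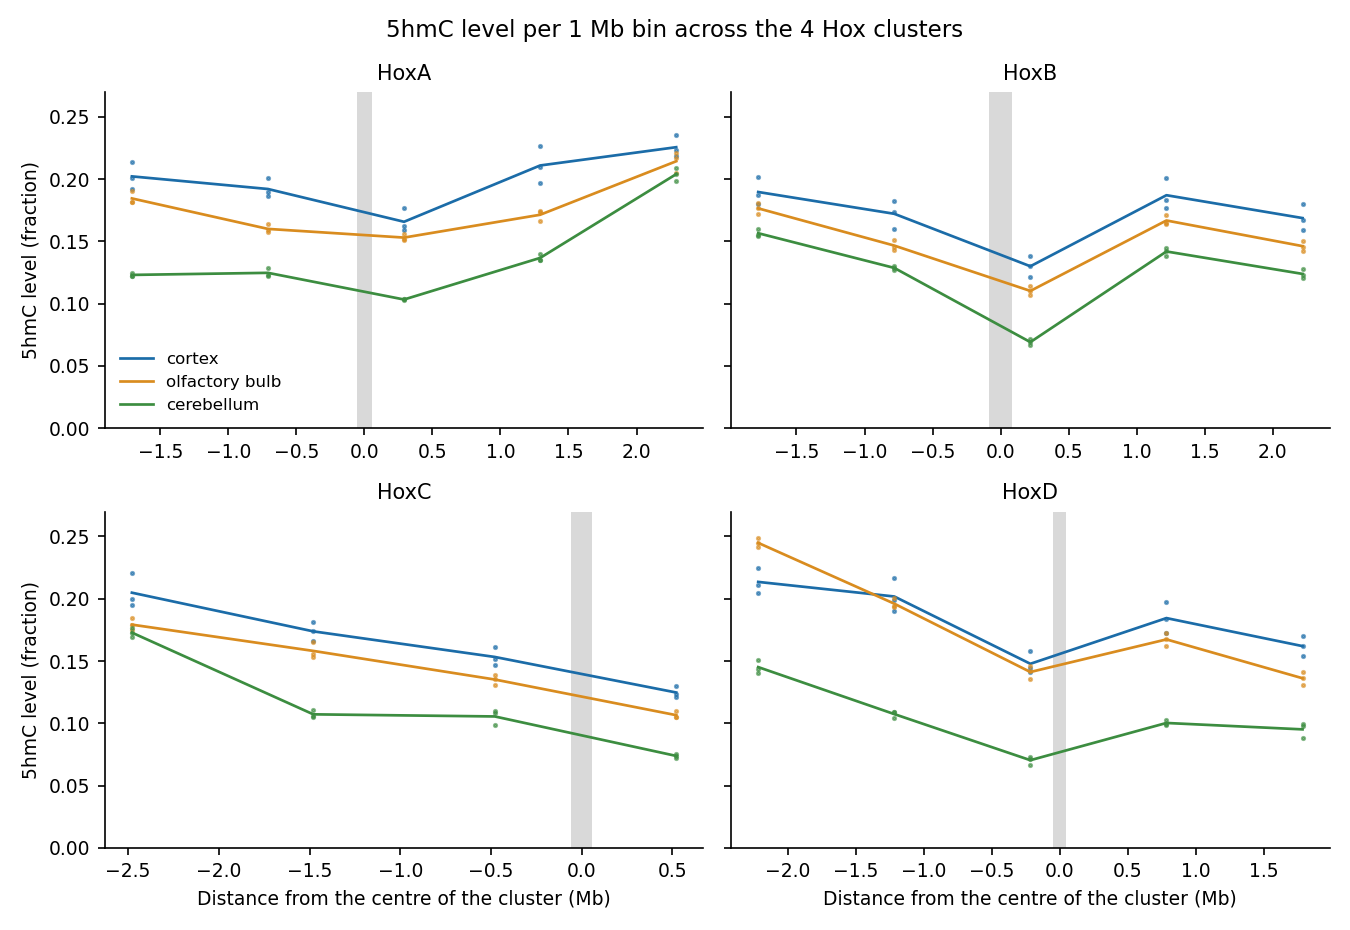
The x axis of each panel gives the distance of a 1 Mb bin from the centre of the cluster (Mb), the y axis the 5hmC level (fraction), lines the mean of each tissue, points the 9 TAB-seq libraries, and the grey band the cluster. The bin that holds HoxB is at 0.130, 0.110 and 0.0692 in cortex, olfactory bulb and cerebellum, below its neighbours, and cerebellum is the lowest line at each cluster.

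When 5mC was averaged to the same 1 Mb bins, the part of the Hox bins in the 1 Mb mean could be read. The HoxC bin with Hoxc5 to Hoxc13 ranked 5 and the HoxB bin ranked 7 from the lowest of 2581 bins, and the HoxA, HoxD and other HoxC bins ranked 51, 211 and 222. Without the Hox bins of 100 kb, the cortex level of the HoxD bin went from 0.601 to 0.693, above the cortex median of 0.683, and that of the HoxA bin from 0.551 to 0.638. The HoxB bin went from 0.505 to 0.596, and the HoxC bins from 0.490 to 0.537 and from 0.601 to 0.638. The rest of the HoxD bin was thus at an ordinary level, while at the other clusters the rest of the bin was below the median too. The sum of 5mC and 5hmC was 0.635 ± 0.00983 in the HoxB bin in cortex and between 0.602 and 0.757 over the Hox bins and tissues, below the medians of all bins of 0.851 (cortex), 0.863 (olfactory bulb) and 0.838 (cerebellum). 5hmC made up 17.2% to 23.8% of this sum in cortex (median of all bins 20.5%), 14.6% to 21.3% in olfactory bulb (17.7%) and 9.70% to 16.6% in cerebellum (11.1%). The 1 Mb bins that hold the clusters, most of whose sequence lies outside them, were therefore low in this sum, with a 5hmC share on either side of the median. The sum joins an unweighted mean of 100 kb bins for 5mC with a 1 Mb level from other libraries for 5hmC. Their weighting of CpG sites may differ.

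The sequence of the Hox bins was also far from that of most bins. They held a median of 1901 CpG sites (1281 to 2642) against 1095 in the flank bins and 751 in all bins, and the Hoxa5 to Hoxa13 bin had the fifth highest CpG count of the genome. Repeats covered a median of 24.0% of the Hox bins, 26.9% of the flank bins and 32.3% of all bins, with the least, 17.5%, in the Hoxc5 to Hoxc13 bin. Over all bins the 5mC level went with both features, with a Spearman rho of -0.644 with CpG sites and 0.547 with the repeat share (25664 bins, which share libraries and base composition). Over the 9 Hox bins the rho with CpG sites was -0.783, and -0.738 without the Hoxb13 bin, where bins of the same cluster lie side by side. The rho with the number of Hox genes in a bin was -0.928, and -0.897 without the Hoxb13 bin. That with the cover by the cluster was -0.583 and -0.405.

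Other bins of like CpG content were mostly far above the Hox bins. Of 2943 other bins with at least 1281 CpG sites, the fewest in a Hox bin, the median 5mC level was 0.607, and 3 of them were at or below 0.276, the highest level of the 8 Hox bins without Hoxb13. In the class of 2000 or more CpG sites (69 bins, 3 of them Hox) the median was 0.452, and the Hox bins of this class had 0.0735 (Hoxc5 to Hoxc13), 0.136 (Hoxa5 to Hoxa13) and 0.228 (Hoxd9 to Hoxd13). The 4 non-Hox bins among the lowest 12, named after their levels were seen, were a bin with the predicted genes Gm36079 and Gm21188 at 0.110, a bin of the histone gene cluster on chromosome 13 (with Hist1h4h and Hist1h3g) at 0.233, and bins without protein-coding genes on chromosome 17 at 0.173 and on chromosome 15 at 0.262.

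**Figure D5:**
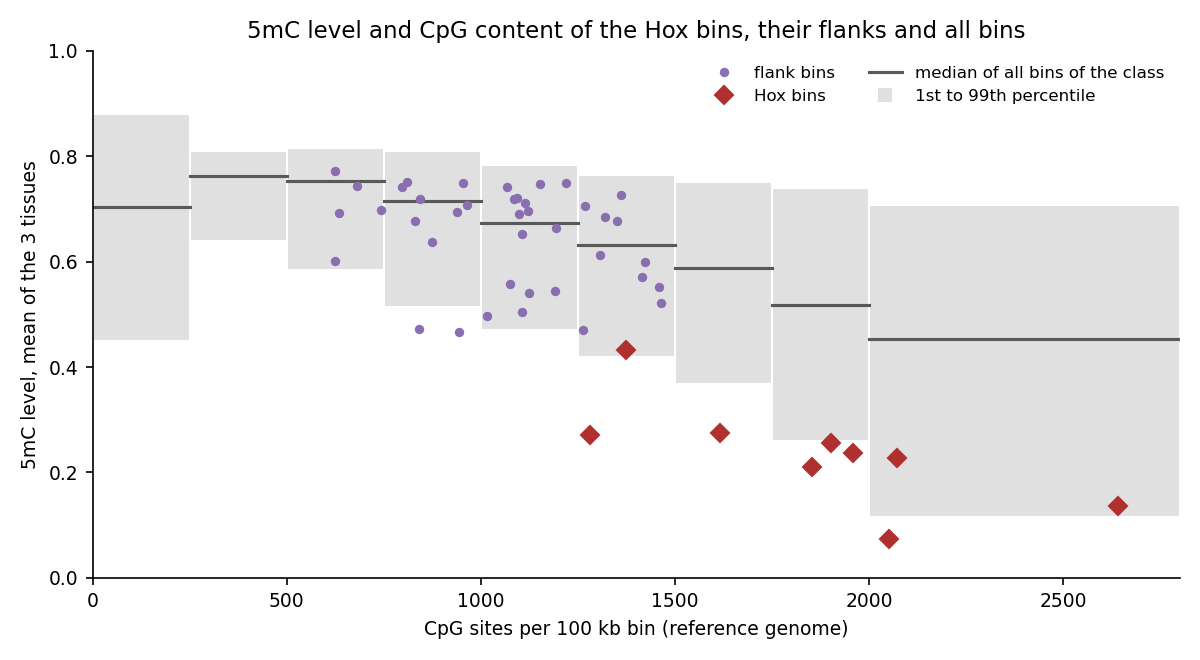
The x axis gives the CpG sites of a 100 kb bin in the reference genome and the y axis its 5mC level (fraction, mean of the 3 tissues), with the 9 Hox bins as red diamonds, the 40 flank bins as purple points, and grey boxes with lines for the 1st to 99th percentile and the median of all bins in classes of CpG count. The class medians go down from 0.762 at 250 to 500 sites to 0.452 at 2000 or more, and 6 of the 9 Hox diamonds lie below the grey box of their class. The boxes include the Hox bins, so this count depends on where these bins place the lower edge. In the class of 2000 or more sites (69 bins, 3 of them Hox) the edge of 0.116 lies between Hox bins.

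Genes related to the Hox genes by family or by function lay in bins of varied level, most of them above the Hox bins in cortex. Evx1 and Evx2, which border the group 13 ends of HoxA and HoxD, differed, since Evx2 lies in the Hoxd9 to Hoxd13 bin at 0.228 and the bin of Evx1 was at 0.536 (cortex), 0.547 (olfactory bulb) and 0.537 (cerebellum), and neither bin was called between any tissues. The ParaHox genes, the sister group of the Hox genes (Gsx1, Gsx2, Pdx1, Cdx1, Cdx2 and Cdx4), lay in 6 bins with a median of 0.534 in cortex, from 0.466 (Gsx2, a patterning factor of the ventral forebrain) to 0.648 (Cdx4, an activator of Hox genes). Of these, 1 was called higher in olfactory bulb than in cortex, where 37.6% of all bins were, and 3 higher in cerebellum than in cortex, where 71.9% of all bins were. The bins of the genes of other clustered homeobox families had a cortex median of 0.477 (19 bins, 2 among the 100 lowest), and 12 were called higher in cerebellum than in cortex and 0 lower, where 71.9% of all bins were higher. Between olfactory bulb and cortex 1 of the 19 was called higher and 2 lower (2.18% of all bins were lower), and the bin of Dlx5 and Dlx6, which act in inhibitory neurons of the forebrain, was at 0.379 in cortex and 0.2003 in olfactory bulb, within the range of the Hox bins.

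Among the partners and regulators of Hox proteins, the TALE cofactors (Pbx, Meis and related genes) lay in 22 bins. Between olfactory bulb and cortex, 6 were called higher and 11 lower, where 37.6% of all bins were higher and 2.18% lower. Between cerebellum and cortex 14 were called higher and 2 lower, where 71.9% of all bins were higher and 4.44% lower. Their cortex median was 0.569, and the lowest of their bins in olfactory bulb was at 0.206. The bins of Polycomb and trithorax genes, whose products silence and maintain Hox expression, had a cortex median of 0.558 (26 bins), with 14 called higher and 4 lower between cerebellum and cortex, against the same shares of all bins. In the same comparison the 9 Hox bins had 1 call, against the 76.4% of all bins given above.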

How the data were processed

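The authors mapped paired reads uniquely to mm10 with Bismark, as the labels state, and deposited fractions (0 to 1) for the bins of each library, without counts. How sites or reads were combined within a bin is not given in the sources used here. Bins were matched to genes of GENCODE M21 and to the GRCm38 sequence. Libraries were grouped by the labels' tissue and assay. Bins listed at 0 or 1 in at least 1 library were removed. The remaining fractions were tested as log2(level/(1 - level)) with limma 3.58.1 in R 4.3.3, 1 fit over the 3 tissues per assay, with Benjamini-Hochberg adjustment. A bin was called at an adjusted p under 0.05. The standard error was nearly the same for all bins, so a p does not reflect a bin's own spread. Simulated tables had 200 changed bins, of 25664 for 5mC and of 2581 for 5hmC. For 5mC, limma recovered 67.5% of bins changed by 0.5, 100% of those changed by 1 and 0% of those changed by 0.2. For 5hmC these shares were 100%, 100% and 35.0%. Far more bins were called in the data, where the adjusted cutoff was therefore less strict. The simulated shares thus do not say which changes could be found in the tissue comparisons. Single values were tested with two-sided exact permutations over libraries (Python 3.11.15, numpy 2.4.6, pandas 2.3.3, scipy 1.17.1). Plots were made with matplotlib 3.10.9.

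Hox genes and bins are described, except for 1 bin whose own values are not reported here but enter the counts and means over the 9 bins. Named flank bins are the lowest and highest of each cluster and those called without overlap between tissues, at most 3 for each cluster and pair, and bins at the borders. The Hox genes, the gene lists and the tests were chosen with earlier results of these data known. RNA-seq libraries and sequencing batches were not analysed here. Alternatives covered the scale, centring, filter, flank width, weights, chromosomes, variance model, replicate number and each library.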

Additional observations from a re-analysis of the deposited data

How the results depend on the processing

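The lower 5mC and 5hmC of the Hox bins than of their flanks kept direction and significance under every alternative run, as did the end differences of HoxB and HoxC. Leaving out a library moved the former from -0.422 to -0.412 and from -0.0320 to -0.0306. That of HoxD went from -0.0288 to -0.0198.

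The few 5mC calls depended on the setting. Between cerebellum and cortex the 1 called Hox bin became 0 on the fraction scale, 0 with all bins kept at limited levels, 0 with the replicate block, 2 with the replicate block by library names, 8 after centring on library medians (50.04% of all bins called) and 4 of the 5 bins of 1 Mb (2207 of all 2581 called). Leaving out a library gave 0 to 1. Between cerebellum and olfactory bulb the 1 became 0 on the fraction scale, with limited levels and with limma's trend and robust options, 2 after centring (43.4%) and 2 at 1 Mb (1475 of 2581), and 0 to 1 without a library. Between olfactory bulb and cortex the 0 became 3 after centring (18.7%) and 1 at 1 Mb (1588 of 2581), and stayed 0 without any library.

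Centring reversed signs. The mean over the Hox bins became -0.0290, -0.0486 and -0.0197 for 5mC (olfactory bulb minus cortex, cerebellum minus cortex, cerebellum minus olfactory bulb) and 0.00775, 0.0217 and 0.0139 for 5hmC. By bin, the 5mC log2 changes between cerebellum and cortex became -0.30 (Hoxa5 to Hoxa13), -0.35 (Hoxb1 to Hoxb6), -0.35 (Hoxc4), -0.40 (Hoxd9 to Hoxd13) and -0.14 (Hoxd1 to Hoxd9). Those of 5hmC became 0.11 (HoxA), 0.029 (Hoxc5 to Hoxc13) and 0.16 (HoxD) between olfactory bulb and cortex, 0.26, 0.035, 0.42 and 0.20 (HoxA, HoxB, both HoxC bins) between cerebellum and cortex, and 0.15, 0.064, 0.39 and 0.22 between cerebellum and olfactory bulb. The cause was that the medians subtracted differ between tissues.

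The small differences of mean 5mC went from -0.00791 to 0.0142 between olfactory bulb and cortex and from -0.00638 to 0.0157 between cerebellum and olfactory bulb without a library. Whether the replicate numbers pair the libraries was not settled. Deviations of same-numbered libraries correlated over 0.1 in 0 of 6 5mC pairs and 3 of 9 5hmC pairs (0.33, 0.39 and 0.43). Where a tissue had 2 libraries their deviations mirror each other, so the 5mC pairs are not separate checks. With the replicate block, the olfactory bulb minus cortex mean of 5mC was -0.000810, with 0 Hox bins called between cerebellum and cortex, and no 5hmC call count changed. The depth behind a bin is unknown, and with 2 or 3 libraries a tissue test of 1 value cannot go below 0.1.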
